A study of Homo sapiens with 12 samples.

Results

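Oestrogen-responsive genes are the usual readout of an active oestrogen receptor, and 6 of them are described here: GREB1, TFF1, IGFBP4, TSKU, RAPGEFL1 and MYC. They were chosen by name. Each is read by 1 named probe set on the array, which is therefore also its brightest, and they are 6 of the 14884 genes tested. The RNA was that of Ishikawa cells, a line from a human endometrial adenocarcinoma, in 4 labelled groups of 3 arrays: shMOF ERα(+), control ERα(+), shMOF ERα(-) and control ERα(-). The labels give shMOF or control as the genotype and ERα(+) or ERα(-) as a condition. The sources used here do not state the hairpin's sequence, whether the cells are clones, whether hormone was given or what makes a culture ERα(+) or ERα(-). They also do not state where the replicates came from, so p-values cover only the spread among these arrays, possibly a technical one.

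Oestradiol binds ERα, a nuclear receptor encoded by ESR1, and the receptor then binds DNA at oestrogen response elements or is held at DNA by other factors such as SP1 and AP-1. Co-activators, among them histone acetyltransferases, open the chromatin of the target genes. In the uterus this system drives growth of the endometrial lining in the first part of the menstrual cycle. GREB1 and TFF1 are the targets most often read in breast cancer cells. MOF, encoded by KAT8, acetylates histone H4.

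The transcripts of the 2 proteins named in the labels did not follow the labels. KAT8 lay between 6.66 and 7.02 in shMOF ERα(+), against 6.60 to 6.81 in control ERα(+), and between 6.72 and 6.78 in shMOF ERα(-), against 6.68 to 6.87 in control ERα(-), all on the RMA log2 scale. ESR1 lay between 4.27 and 4.28 in shMOF ERα(+), 4.32 and 4.65 in control ERα(+), 4.34 and 4.52 in shMOF ERα(-) and 4.12 and 4.43 in control ERα(-). Its shMOF ERα(+) arrays were lower, without overlap, than those of control ERα(+), where 26.2% of genes did not overlap in either direction. They were also lower, without overlap, than those of shMOF ERα(-) (9.51% of genes). A group name below is therefore only what the arrays are labelled. The 9 measured epithelial markers lay between percentile 58.9 (FOXA2) and 99.8 (EPCAM) of mean level among tested genes. Of the 7 measured markers of other cell types, stromal DCN (percentile 2.70) and LUM (3.25) were the dimmest, and stromal THY1 (37.8) and the macrophage marker CD68 (71.9) the brightest, CD68 above epithelial KRT8 (63.7). The mean level of the epithelial markers ran from 8.16 to 8.46 in shMOF ERα(+), 8.46 to 8.75 in control ERα(+), 8.31 to 8.65 in shMOF ERα(-) and 8.33 to 8.37 in control ERα(-). The markers of stromal, immune and endothelial cells had mean levels from 3.88 to 4.07, 4.00 to 4.16, 3.95 to 4.29 and 4.00 to 4.05 in the same 4 groups. In bulk samples, fewer cells of a type and less RNA per cell cannot be told apart.

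Promoter sequence bears on these genes because ERα is known to act either at its own element or through SP1 and AP-1 sites. RefSeq promoter windows of GRCh38.p14 were read for 3 of the 6 genes, with 2 starts for TSKU. GREB1, TFF1 and MYC are named only. Their windows were not read, which does not mean that these genes lack one. The 250 bases before the start are shown for RAPGEFL1 and TSKU, whose signals moved together over the arrays, and for IGFBP4, which lies near RAPGEFL1 on chromosome 17. All are on the plus strand and read 5′ to 3′. Capitals mark matches, on either strand, to the oestrogen receptor half-site GGTCA, the SP1 box GGGCGG and the TATA box TATAAA.
RAPGEFL1, chr17:40177220-40177469: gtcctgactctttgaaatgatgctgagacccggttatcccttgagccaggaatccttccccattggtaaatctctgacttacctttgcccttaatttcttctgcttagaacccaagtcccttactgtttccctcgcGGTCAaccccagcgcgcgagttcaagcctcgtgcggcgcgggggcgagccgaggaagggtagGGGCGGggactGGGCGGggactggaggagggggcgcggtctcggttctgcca
TSKU, first start, chr11:76783106-76783355: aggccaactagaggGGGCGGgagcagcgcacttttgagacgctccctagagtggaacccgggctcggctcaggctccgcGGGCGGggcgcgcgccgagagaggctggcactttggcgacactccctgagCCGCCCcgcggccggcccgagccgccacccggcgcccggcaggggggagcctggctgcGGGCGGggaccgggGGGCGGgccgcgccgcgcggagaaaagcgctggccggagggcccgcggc
IGFBP4, chr17:40443200-40443449: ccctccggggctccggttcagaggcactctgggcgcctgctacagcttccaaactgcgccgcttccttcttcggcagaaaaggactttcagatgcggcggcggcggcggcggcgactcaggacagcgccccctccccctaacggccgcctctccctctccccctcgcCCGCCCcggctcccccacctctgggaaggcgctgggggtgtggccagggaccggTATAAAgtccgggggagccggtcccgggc
A full element, GGTCA followed after 3 bases by TGACC, was in 0 of these windows and in 0.0399% of all 35116 windows of 250 bases. RAPGEFL1 held 1 half-site GGTCA, 114 bases before the start, a match that 32.6% of all windows have. SP1 boxes numbered 5 at the first TSKU start, 2 at RAPGEFL1 and 1 at IGFBP4, and 42.6% of all windows hold at least 1. The second TSKU start, chr11:76783898-76784147 and not printed, held 1 SP1 box. IGFBP4 had the only TATA box, 29 bases before the start, found in 10.7% of windows. The AP-1 site TGANTCA, found in 6.57% of windows, matched in 0 of the 4. No match overlapped another. A match is only these letters in this window. GC content was 59.6% for RAPGEFL1, 78.8% for the first TSKU start and 71.6% for IGFBP4, against a median of 58.0% over all windows.

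Over the 12 arrays the 6 genes covered narrow ranges, from 0.50 (MYC) to 1.11 (TSKU) on the log2 scale. TSKU varied more than most genes, with an SD over the arrays of 0.37, percentile 94.1 of tested genes. MYC was among the steadier ones (SD 0.15, percentile 24.96), and the others lay between (GREB1 0.18, TFF1 0.24, IGFBP4 0.20, RAPGEFL1 0.20, with a median of 0.20 over all genes). MYC and TSKU were bright, at percentiles 91.8 and 84.1 of mean level. TFF1 (percentile 35.0), RAPGEFL1 (37.3), GREB1 (40.3) and IGFBP4 (46.1) were dimmer, and RMA can shrink the differences of dim genes. The share of a gene's variance that lay between the 4 groups was 61.7% for IGFBP4, 53.4% for TSKU, 49.7% for GREB1, 37.3% for TFF1, 35.1% for RAPGEFL1 and 22.2% for MYC, against a median of 31.9% over all tested genes.

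**Figure D1:**
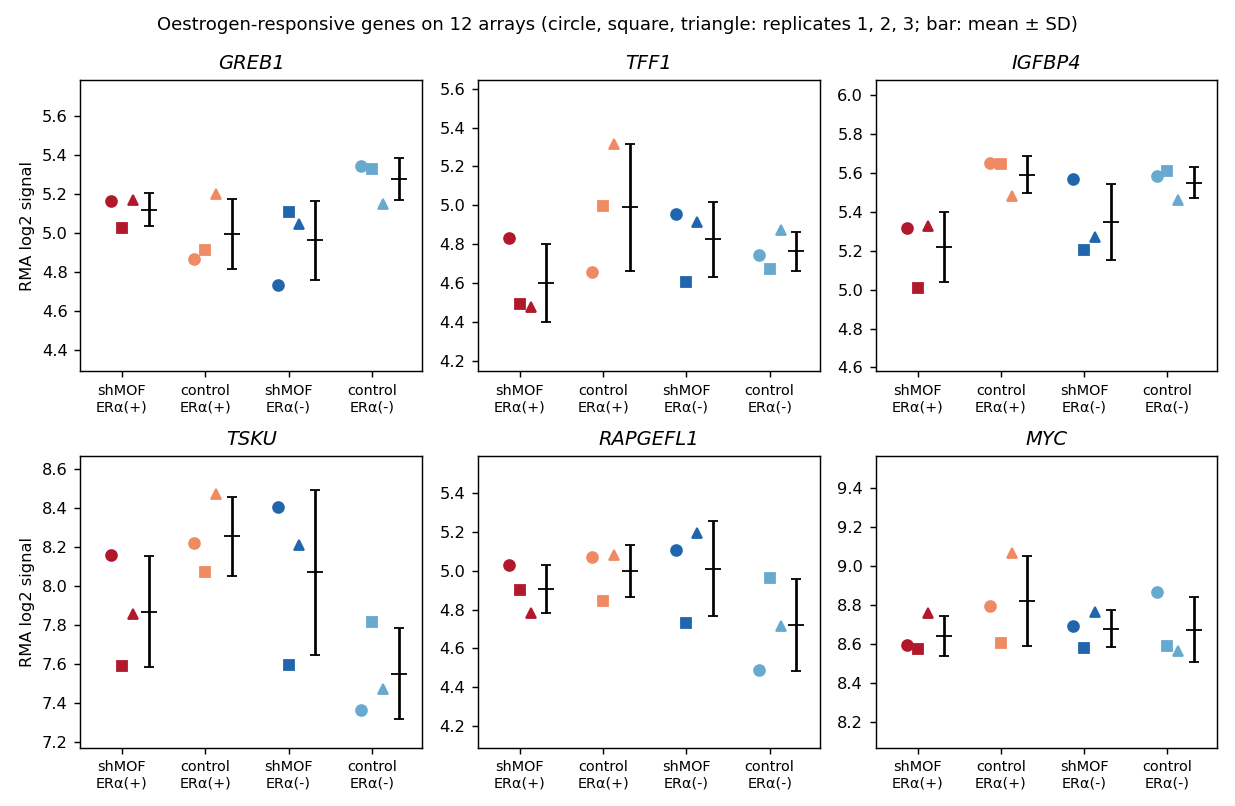
RMA log2 signal of the 6 genes (vertical axes, each spanning the same number of log2 units) on the 12 arrays, by labelled group, with the mean and SD of 3 arrays as bars. Control ERα(+) has the highest mean for 4 of the 6 genes and shMOF ERα(+) the lowest for 3, but neighbouring groups overlap in every panel.

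GREB1, a large protein that binds ERα and its cofactors on chromatin, had signals of 5.17, 5.02 and 5.17 in shMOF ERα(+), against 4.87, 4.91 and 5.20 in control ERα(+). In shMOF ERα(-) they were 4.73, 5.11 and 5.05, against 5.15 to 5.35 in control ERα(-), where 2 of the 3 arrays were the brightest of all 12. The groups in ERα(-) did not overlap. The log2 difference between shMOF and control was -0.31 (95% interval -0.60 to -0.02) in ERα(-), with a limma unadjusted p of 0.0364 and an adjusted p of 0.953, and it was -0.20 without shMOF ERα(-) replicate 1. In ERα(+) it was 0.13 (-0.16 to 0.42, limma adjusted p = 0.619). The interaction was 0.44 (0.03 to 0.85, limma adjusted p = 0.259), and with array quality weights 0.46 and called (limma adjusted p = 0.0333). Those weights called 3258 of 14884 genes for the interaction. Between the conditions the difference was 0.16 (-0.13 to 0.45) in shMOF and -0.28 (-0.57 to 0.0090) in control, so that among control arrays the classical target had its lower mean under the label ERα(+). Means were 5.12 ± 0.08 in shMOF ERα(+), 4.99 ± 0.18 in control ERα(+), 4.96 ± 0.20 in shMOF ERα(-) and 5.28 ± 0.11 in control ERα(-) (SD, n = 3 each). From high to low the order was control ERα(-), shMOF ERα(+), control ERα(+) and shMOF ERα(-), with overlapping neighbours throughout.

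TFF1 encodes trefoil factor 1, a small secreted peptide of mucous epithelia. Its signals were 4.83, 4.49 and 4.48 in shMOF ERα(+), against 4.66, 4.997 and 5.31 in control ERα(+), and 4.96, 4.60 and 4.91 in shMOF ERα(-), against 4.74, 4.67 and 4.87 in control ERα(-). The control ERα(+) arrays spread most (SD 0.33), and replicate 3 of them was the highest of all. In ERα(+) shMOF differed from control by -0.39 (-0.75 to -0.03, limma unadjusted p = 0.0374, adjusted p = 0.249), and the groups overlapped. Without control ERα(+) replicate 3 that difference was -0.23 (limma unadjusted p = 0.194). In ERα(-) it was 0.06 (-0.30 to 0.42). ERα(+) differed from ERα(-) by -0.22 (-0.58 to 0.14) in shMOF and by 0.23 (-0.13 to 0.59) in control, and the value in control was 0.06 without the same array. TFF1 averaged 4.60 ± 0.20 in shMOF ERα(+), 4.99 ± 0.33 in control ERα(+), 4.82 ± 0.19 in shMOF ERα(-) and 4.76 ± 0.10 in control ERα(-) (SD, n = 3 each). Control ERα(+) was highest and shMOF ERα(+) lowest, with shMOF ERα(-) just above control ERα(-) between them, and neighbours overlapped.

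IGFBP4 encodes a secreted protein that binds insulin-like growth factors and limits their action. It had signals of 5.32, 5.01 and 5.33 in shMOF ERα(+), against 5.65, 5.64 and 5.48 in control ERα(+), without overlap. In shMOF ERα(-) they were 5.57, 5.21 and 5.27, against 5.58, 5.61 and 5.46 in control ERα(-), where the groups overlapped through shMOF replicate 1. The shMOF difference was -0.37 (-0.66 to -0.09) in ERα(+), 0.77 of the control level, with a limma unadjusted p of 0.0140 and an adjusted p of 0.223. With array quality weights it was called (-0.36, limma adjusted p = 0.0376), among 1629 of 14884 genes called in that setting. In ERα(-), with equal weights, the shMOF difference of IGFBP4 was -0.20 (-0.49 to 0.08, limma adjusted p = 0.953). Between the conditions its mean differed by -0.13 (-0.42 to 0.15) in shMOF and 0.04 (-0.24 to 0.33) in control, with intervals that include 0 but are wide. Its means were 5.22 ± 0.18 in shMOF ERα(+), 5.59 ± 0.09 in control ERα(+), 5.35 ± 0.19 in shMOF ERα(-) and 5.55 ± 0.08 in control ERα(-) (SD, n = 3 each). From high to low the order was control ERα(+), control ERα(-), shMOF ERα(-) and shMOF ERα(+), each overlapping the next, and of the 6 genes it was the one with both shMOF means below both control means. The test of whether its shMOF difference depended on the condition gave -0.17 (-0.58 to 0.23, limma adjusted p = 0.645).

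TSKU encodes tsukushi, a secreted leucine-rich repeat protein that acts in BMP and Wnt signalling. Its signals were 8.16, 7.59 and 7.86 in shMOF ERα(+), against 8.22, 8.07 and 8.47 in control ERα(+). In shMOF ERα(-) they were 8.41, 7.59 and 8.21, against 7.36, 7.82 and 7.47 in control ERα(-). Between the control arrays ERα(+) lay above ERα(-) without overlap, by 0.71 (0.25 to 1.16), or 1.63-fold, with a limma unadjusted p of 0.00492 and an adjusted p of 0.333. Only 1.38% of tested genes had a smaller p in that comparison. Among shMOF arrays the difference was -0.20 (-0.65 to 0.25). The shMOF difference was -0.39 (-0.84 to 0.07) in ERα(+) and 0.52 (0.07 to 0.97, limma unadjusted p = 0.0276, adjusted p = 0.953) in ERα(-). Those 2 differences have opposite signs, and the interaction was -0.91 (-1.55 to -0.27, limma unadjusted p = 0.00897, adjusted p = 0.219). The interaction of TSKU was called without shMOF ERα(-) replicate 2 (-1.15, limma adjusted p = 0.0359), the lowest array of its group. That setting called 570 of 14884 genes for the interaction. With array quality weights the interaction of TSKU was called (-0.96, limma adjusted p = 0.00926), as was its shMOF difference in ERα(-) (0.61, limma adjusted p = 0.0282). Those weights called 3258 genes for the interaction and 645 for shMOF in ERα(-), so these calls were not particular to TSKU. The 9 measured epithelial markers had median differences of -0.32 for shMOF among ERα(+) arrays, 0.10 for shMOF among ERα(-) arrays, -0.16 for ERα(+) among shMOF arrays and 0.21 for ERα(+) among control arrays, the signs that TSKU, TFF1, RAPGEFL1 and MYC had. Under some alternatives the sign turned for shMOF in ERα(-) (TFF1 at 0.06, MYC at 0.0047). It also turned for ERα in shMOF (MYC at -0.04) and in control (TFF1 at 0.23). The part of the epithelial markers in the values of these genes was not tested. TSKU averaged 7.87 ± 0.29 in shMOF ERα(+), 8.26 ± 0.20 in control ERα(+), 8.07 ± 0.42 in shMOF ERα(-) and 7.55 ± 0.24 in control ERα(-) (SD, n = 3 each). Its order from high to low was control ERα(+), shMOF ERα(-), shMOF ERα(+) and control ERα(-), with overlapping neighbours.

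RAPGEFL1 encodes a protein resembling the exchange factors that load the small GTPase RAP with GTP. Signals were 5.03, 4.90 and 4.78 in shMOF ERα(+), against 5.07, 4.84 and 5.08 in control ERα(+), and 5.10, 4.73 and 5.19 in shMOF ERα(-), against 4.49, 4.96 and 4.71 in control ERα(-). All of these groups overlapped. The shMOF difference was -0.10 (-0.43 to 0.24) in ERα(+) and 0.29 (-0.04 to 0.62) in ERα(-), and the ERα difference was -0.11 (-0.44 to 0.23) in shMOF and 0.28 (-0.05 to 0.61) in control. The signs in the 4 comparisons were those of TSKU. TFF1 and MYC had the same 4 signs, some of which turned under alternatives. The interaction was -0.38 (-0.85 to 0.08, limma adjusted p = 0.351), and with array quality weights it was -0.58 and called (limma adjusted p = 0.0233). Those weights called 3258 of 14884 genes for the interaction. Without control ERα(-) replicate 1, the lowest array, the shMOF difference in ERα(-) was 0.17 and the ERα difference in control 0.16. RAPGEFL1 averaged 4.90 ± 0.12 in shMOF ERα(+), 4.999 ± 0.13 in control ERα(+), 5.01 ± 0.24 in shMOF ERα(-) and 4.72 ± 0.24 in control ERα(-) (SD, n = 3 each). Its highest mean was that of shMOF ERα(-), followed by control ERα(+), shMOF ERα(+) and control ERα(-), and neighbours overlapped.

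MYC, a transcription factor of growth genes and an early oestrogen target in breast cancer cells, had no difference whose interval left out 0. It had signals of 8.59, 8.57 and 8.76 in shMOF ERα(+), against 8.79, 8.60 and 9.07 in control ERα(+), and 8.69, 8.58 and 8.77 in shMOF ERα(-), against 8.87, 8.59 and 8.57 in control ERα(-). Its shMOF difference was -0.18 (-0.48 to 0.12) in ERα(+), and -0.06 without control ERα(+) replicate 3, and it was 0.0047 (-0.29 to 0.30) in ERα(-). The ERα difference was -0.04 (-0.33 to 0.26) in shMOF and 0.15 (-0.15 to 0.45) in control, and the value in control was 0.03 without the same array, the highest of the 12. Limma adjusted p-values lay between 0.473 and 0.999 in these 4 comparisons. MYC averaged 8.64 ± 0.10 in shMOF ERα(+), 8.82 ± 0.23 in control ERα(+), 8.68 ± 0.09 in shMOF ERα(-) and 8.67 ± 0.17 in control ERα(-) (SD, n = 3 each). Control ERα(+) was highest, then shMOF ERα(-), control ERα(-) and shMOF ERα(+), all overlapping.

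**Figure D2:**
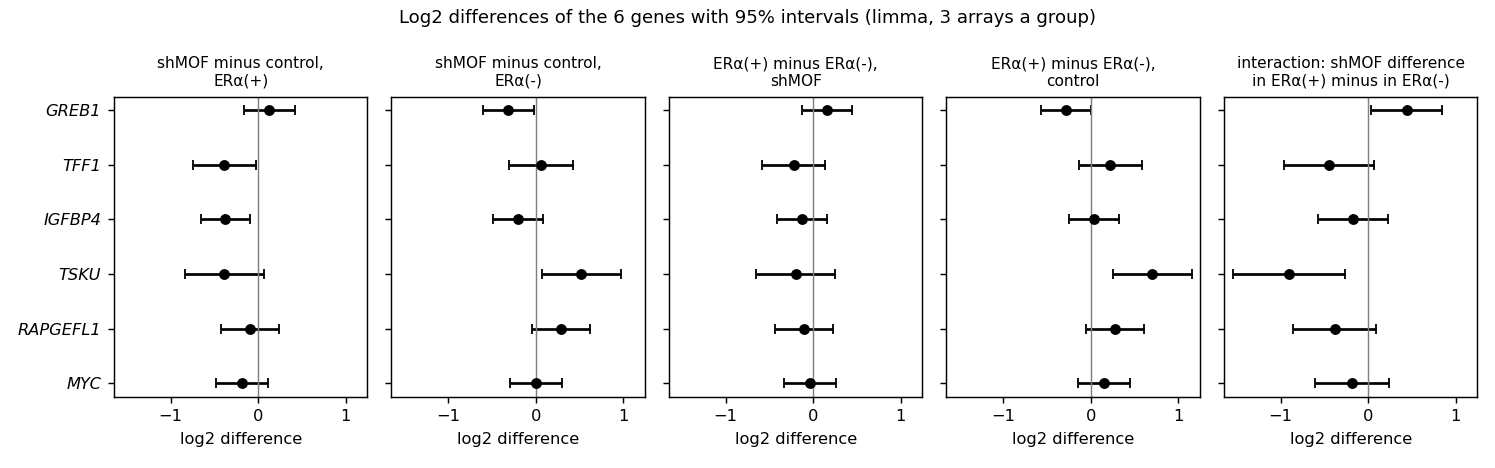
Log2 difference (horizontal axis) of each of the 6 genes with its 95% interval in 4 comparisons of labelled groups and in the interaction, from limma over all 12 arrays. TSKU has the largest difference, 0.71 between control ERα(+) and control ERα(-), and its interaction of -0.91 is the farthest from 0.

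Among the 6 genes limma called 0 of them at an adjusted p below 0.05 in any comparison, as it did 0 of 14884 genes (0%) in each. At an unadjusted p below 0.05, 2 of the 6 passed for shMOF against control in ERα(+) (TFF1 and IGFBP4), where 18.7% of all genes passed. In ERα(-) 2 passed (GREB1 and TSKU, in opposite directions), against 4.78% of genes. For ERα(+) against ERα(-), 0 passed in shMOF, against 5.33% of genes, and 1 in control (TSKU), against 12.7%. The interaction had 2 (GREB1 and TSKU, with opposite signs), against 18% of genes. Groups did not overlap for 1 gene in ERα(+) (IGFBP4, 26.2% of all genes), 1 in ERα(-) (GREB1, 8.76%), 0 between the shMOF groups (9.51%) and 1 between the control groups (TSKU, 19.3%). Of the 6 differences 1 was above 0 for shMOF against control among ERα(+) arrays (43.8% of genes) and 4 among ERα(-) arrays (49.4%). For ERα(+) against ERα(-) 1 was above 0 among shMOF arrays (45% of genes) and 5 among control arrays (49.6%), and 1 interaction was above 0 (46.5%). The comparisons share groups, so these counts are not independent of one another. The median over the 6 was -0.28 and 0.03 for shMOF among ERα(+) and ERα(-) arrays, and -0.12 and 0.19 for ERα(+) among shMOF and control arrays, beside medians over all genes of -0.04, -0.0026, -0.03 and -0.0024.

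Averaged over shMOF and control, the ERα label separated none of the 6 genes. The averaged difference between ERα(+) and ERα(-) was 0.25 (-0.07 to 0.57) for TSKU, 0.09 (-0.15 to 0.32) for RAPGEFL1, 0.06 (-0.15 to 0.27) for MYC, 0.0021 (-0.25 to 0.26) for TFF1, -0.04 (-0.25 to 0.16) for IGFBP4 and -0.06 (-0.27 to 0.14) for GREB1. Limma's adjusted p was 1 for each, and 0 of the 6 passed at an unadjusted p below 0.05, against 3.41% of genes. Of the 6 values 4 were above 0 (47.2% of genes), and groups did not overlap for 0 (0.101%). For each of the 6 the ERα differences among shMOF and among control arrays had opposite signs, so these averaged intervals do not bound the difference within a genotype.

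Whether the 6 move together was read from the 15 pairs of them over the 12 arrays, with 6 further relations to ESR1, all 21 adjusted together. One pair passed: TSKU and RAPGEFL1, with Pearson's r = 0.87 (permutation p = 2.1e-04, adjusted p = 0.00441) and Spearman's rho = 0.87 (permutation p = 4.4e-04, adjusted p = 0.00924). Of all pairs of tested genes, 1.19% had an r as far from 0. Without control ERα(-) replicate 1 and control ERα(+) replicate 3, the arrays farthest from the median of TSKU, r was 0.82 (permutation p = 0.00589). Within the groups, on deviations from the group means, r was 0.82 (exact permutation within groups p = 0.0131), and with all 21 relations adjusted it no longer passed (p = 0.275). The lowest array of the group was the same for TSKU and RAPGEFL1 in control ERα(+) (replicate 2), shMOF ERα(-) (replicate 2) and control ERα(-) (replicate 1). In shMOF ERα(+) it differed, with replicate 2 for TSKU and replicate 3 for RAPGEFL1.

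The other 14 pairs did not pass. TFF1 and TSKU had r = 0.60 (rho = 0.50, permutation p = 0.0375 for r and 0.0992 for rho, adjusted p = 0.263 for r), and without the 2 arrays farthest from the median of TFF1 r was 0.50. TFF1 and MYC had r = 0.49, which was -0.04 without control ERα(+) replicate 3. GREB1 ran against TSKU (r = -0.51, rho = -0.38) and RAPGEFL1 (r = -0.48, rho = -0.41), with adjusted permutation p = 0.389 for both Pearson values. The classical pair GREB1 and TFF1 had r = -0.11 and rho = -0.12 (permutation p = 0.727 and 0.715). Of the 15 values of r 10 were above 0 and the median was 0.27, beside a median of 0.0063 and a range from -0.65 to 0.66 (5th to 95th percentile) for all pairs of tested genes.

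**Figure D3:**
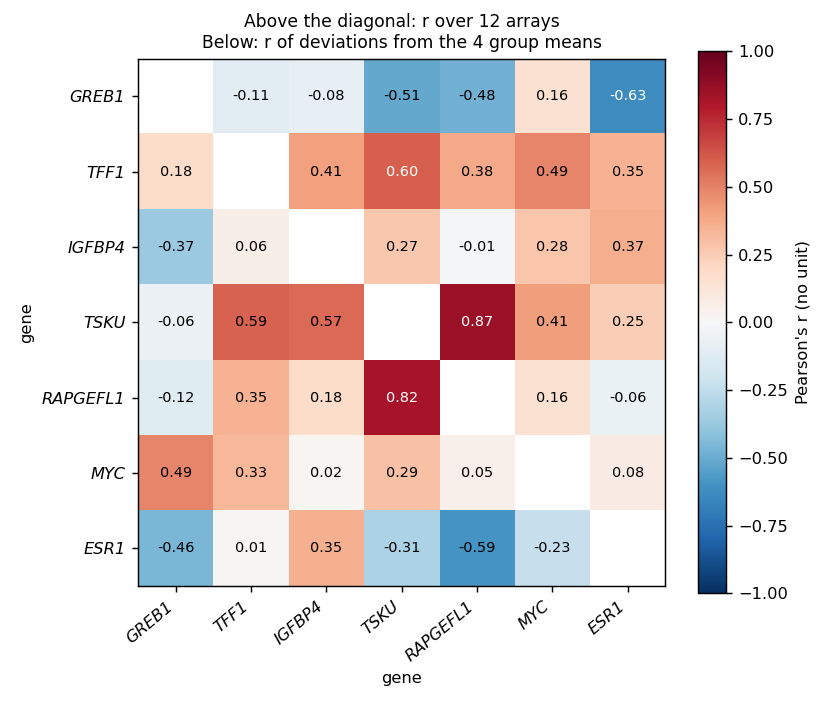
Pearson's r between the 6 genes and ESR1, over 12 arrays above the diagonal and for deviations from the 4 group means below it, on a colour scale from -1 to 1. TSKU with RAPGEFL1 is the one strong pair above and below, at 0.87 and 0.82, and GREB1 with ESR1 is at -0.63 and -0.46.

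None of the 6 passed with ESR1 over all 12 arrays. ESR1 had an r of -0.63 with GREB1 (rho = -0.46, permutation p = 0.0276 for r and 0.133 for rho, adjusted p = 0.263 for r), and -0.56 without the 2 arrays farthest from the median of GREB1. Without control ERα(-) replicate 1 it was -0.79 (adjusted permutation p = 0.0362). For the others r was 0.37 with IGFBP4, 0.35 with TFF1, 0.25 with TSKU, 0.08 with MYC and -0.06 with RAPGEFL1, and their adjusted permutation p-values were 0.5 or higher. ESR1 was dim (percentile 27.1), and its whole range over the arrays was 0.53.

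Part of the variation of these genes ran along the first principal component of all tested genes, which held 36.8% of the variance. Its score was -4.397, -29.81 and -9.85 in shMOF ERα(+), against 13.30, 3.598 and 32.94 in control ERα(+), and 22.28, -18.04 and 9.68 in shMOF ERα(-), against -4.22, -3.58 and -11.90 in control ERα(-). Over the 12 arrays its r was 0.83 with TSKU (rho = 0.82, adjusted permutation p = 0.00438 for r over these 6 relations), 0.78 with TFF1 (rho = 0.69, 0.00834) and 0.69 with MYC (rho = 0.73, 0.0234). It was 0.60 with IGFBP4 (rho = 0.61, 0.0557), 0.58 with RAPGEFL1 (rho = 0.71, 0.0582) and -0.30 with GREB1 (rho = -0.17, 0.349). By Spearman's rho all but GREB1 passed, with adjusted permutation p = 0.0477 for IGFBP4 and 0.0253 for RAPGEFL1. The share of all genes that would pass in this way was not counted. Without control ERα(+) replicate 3 and shMOF ERα(-) replicate 1, r was 0.70 with TSKU (unadjusted permutation p = 0.0227), 0.69 with IGFBP4 (0.0257), 0.56 with TFF1 (0.0913), 0.53 with MYC (0.116) and 0.45 with RAPGEFL1 (0.188). The relations of TFF1, MYC and RAPGEFL1 were thus weaker without those 2 arrays, with unadjusted permutation p above 0.05. That setting also has fewer arrays and a narrower range of the score. Such values were common: 16.4% of tested genes had an r farther from 0 than TSKU, 21.3% than TFF1 and 29.5% than MYC. For IGFBP4 that share was 38.1%, for RAPGEFL1 40.2% and for GREB1 67.8%. The sets of arrays where TFF1, TSKU and MYC were highest met in control ERα(+) replicate 3, at the upper end of the component. Its part in the differences between groups was not tested.

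**Figure D4:**
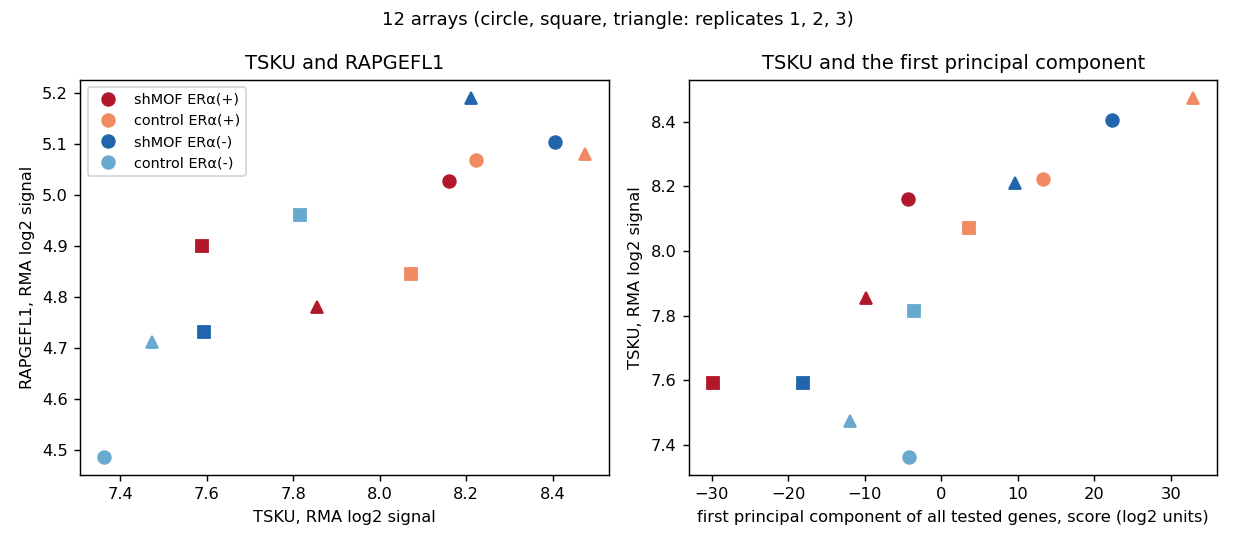
Left, RMA log2 signal of RAPGEFL1 against that of TSKU, and right, TSKU against the score of the first principal component of all tested genes, with a point for each of the 12 arrays. Over the 12 arrays r was 0.87 on the left and 0.83 on the right, and within a group the order of the arrays did not always follow.

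For each of the 6, the 3 genes of most similar pattern were found by Pearson's r over the 12 arrays, among genes whose mean and SD reached the median of tested genes. They were ZBTB7A (r = 0.96), MIR4653 (0.96) and KIFC1 (0.96) for TSKU, EXO5 (0.90), DNMT3B (0.90) and NUP188 (0.89) for RAPGEFL1, and ZER1 (0.88), RAD9A (0.88) and BMP8A (0.86) for MYC. For IGFBP4 they were SERTAD1 (0.88), UBE2S (0.86) and CD2BP2 (0.85), and for TFF1 they were PMVK (0.87), CLIP2 (0.87) and GATD1 (0.87). GREB1 had the weakest matches, SOBP (0.77), MIR3180-4 (0.76) and CCL5 (0.75). None of the 18 names was shared, and the values are the highest of 3420 or 3421 candidates each.

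Of 38 other oestrogen-induced genes measured, limma called 0 in each of the 6 comparisons, interaction included. At an unadjusted p below 0.05, 3 were higher and 3 lower for shMOF among ERα(+) arrays, 0 and 1 for shMOF among ERα(-) arrays, 0 and 1 for ERα(+) among shMOF arrays, and 2 and 1 for ERα(+) among control arrays. These are 15.8%, 2.63%, 2.63% and 7.89% of the list, each below the share of all genes (18.7%, 4.78%, 5.33% and 12.7%), and the interaction had 5.26% against 18%. Their median log2 differences in these comparisons were -0.10, -0.05, -0.02 and -0.02. LTF, which encodes lactoferrin, a secreted iron-binding protein, had 3.36, 3.78 and 3.84 in shMOF ERα(+), against 2.75 to 3.63 in control ERα(+), and 3.95, 3.76 and 4.12 in shMOF ERα(-), against 3.68 to 4.12 in control ERα(-). Averaged over genotypes it differed between ERα(+) and ERα(-) by -0.55 ± 0.15 (SE, limma unadjusted p = 0.00326, adjusted p = 1). That difference was -0.28 ± 0.22 in shMOF and -0.82 ± 0.22 in control (limma adjusted p = 0.748 and 0.333). LTF was dim, with every signal below the median gene level of 5.66. SPDEF, an epithelial transcription factor, differed between shMOF and control by -0.38 ± 0.13 in ERα(+) and -0.32 ± 0.13 in ERα(-), and BCL2, which blocks apoptosis, by 0.31 ± 0.11 and -0.08 ± 0.11.

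Of 16 receptors and co-regulators measured, 0 were called, with medians of -0.04, -0.08, -0.06 and -0.09 in the same 4 comparisons. At an unadjusted p below 0.05, 4, 1, 1 and 2 of the 16 passed there, and 5 for the interaction. These are 25%, 6.25%, 6.25%, 12.5% and 31.2%, against 18.7%, 4.78%, 5.33%, 12.7% and 18% of all genes. The mediator subunit MED1, which contacts nuclear receptors, differed between ERα(+) and ERα(-) by 0.25 ± 0.13 in shMOF and -0.42 ± 0.13 in control (SE, interaction 0.67 ± 0.18, limma adjusted p = 0.219). Around IGFBP4, 14 genes of the insulin-like growth factor axis had 0 calls and medians of -0.12, 0.02, -0.11 and -0.02, and STC1, a secreted glycoprotein hormone, had an interaction of 0.68 ± 0.20 (limma adjusted p = 0.219). The adjusted p of IGFBP3, another carrier of insulin-like growth factors, was 0.387 for its interaction of -0.46 ± 0.28. At an unadjusted p below 0.05, 1, 0, 1 and 1 of the 14 passed, and 1 for the interaction. These are 7.14%, 0%, 7.14%, 7.14% and 7.14%, beside the shares of all genes given for the receptors. For MYC, 8 partners (medians -0.07, -0.06, -0.01 and -0.01) and 11 target genes (-0.23, 0.11, -0.12 and 0.21) had 0 calls. Unadjusted, 2, 1, 0 and 2 of the partners passed and 4 for the interaction (25%, 12.5%, 0%, 25% and 50%). Of the targets 3, 0, 0 and 3 passed and 4 for the interaction (27.3%, 0%, 0%, 27.3% and 36.4%). The shares of all genes are those given for the receptors. Among the partners and targets MLX, a partner in the wider MYC network, differed between shMOF and control by -0.33 ± 0.12 in ERα(+), and PPAT, an enzyme of purine synthesis, by 0.52 ± 0.17. The 12 relatives of the 6 genes also had 0 calls (medians -0.0024, -0.06, 0.0050 and -0.02), with TFF2 at -0.44 ± 0.16 for ERα in control and RAPGEF6, an exchange factor for RAP, at 0.62 ± 0.21 for shMOF in ERα(+). Unadjusted, 2, 0, 1 and 3 of the relatives passed, and 4 for the interaction. These are 16.7%, 0%, 8.33%, 25% and 33.3%, beside the shares of all genes given for the receptors.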

How the data were processed

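The deposited log2 signals came from the authors' RMA run in Affymetrix Expression Console (version 1.4.1, per the submitters' processing notes). RMA corrects background, gives all arrays 1 distribution of values and summarises probe sets. The genome build is not given in the sources used here. Of 53617 probe sets the platform annotation named 16098 by 1 gene, 0 by several and 37519 by none. The brightest probe set stood for each of 14884 genes, with no filter. Group means were fitted in R 4.3.3 by limma 3.58.1 (two-sided, lmFit and eBayes), with Benjamini-Hochberg adjustment over all genes within a comparison. With 3 arrays a group, the 95% interval of a difference between 2 groups had a median half-width of 0.33, and the smallest two-sided p of an exact test is 0.1. Correlations used 100000 permutations of arrays, or all 1296 within groups. The limma fit and the permutation test of correlations over all arrays were tested on simulated data, and the other steps were not. The 6 genes and all lists were chosen with earlier results of these data known, and the relations to the first principal component and the genes near IGFBP4 were chosen after seeing the data. Named genes were the 6, ESR1, KAT8, the 3 most similar genes of each, and up to 4 of each list with the smallest p, of which those shown were picked after their values were seen. Alternatives covered probe sets, a filter, normalization, the variance model, array weights, blocks and each array left out.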

Additional observations from a re-analysis of the deposited data

How the results depend on the processing

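With 3 arrays a group 1 array can carry a difference, and 4 of the 6 genes are below the median level. With array quality weights, which ran from 0.359 (shMOF ERα(-) replicate 2) to 8.86 (shMOF ERα(-) replicate 3), limma called 1629 and 645 genes for shMOF among ERα(+) and ERα(-) arrays, 1918 and 217 for ERα(+) among shMOF and control arrays, 12 for the averaged ERα difference and 3258 for the interaction, against 0 for each with equal weights. These counts are out of 14884 genes. With those weights calls included TSKU for shMOF in ERα(-) (0.61, limma adjusted p = 0.0282) and IGFBP4 for shMOF in ERα(+) (-0.36, 0.0376). They also included the interactions of TSKU (-0.96, 0.00926), RAPGEFL1 (-0.58, 0.0233) and GREB1 (0.46, 0.0333). The next highest weight was 3.7 (control ERα(+) replicate 1), and the cause was not tested. Leaving out each array in turn, counts of called genes ran from 0 to 30 and 0 to 5 for shMOF among ERα(+) and ERα(-) arrays, 0 to 11 and 0 to 4 for ERα(+) among shMOF and control arrays, and 0 to 570 for the interaction, and stayed at 0 for the averaged difference. The highest of each came without shMOF ERα(-) replicate 2. Fitting only the control groups called 9 genes for ERα in control, 0 of them among the 6. The code letter is the first letter of a sample's description, and the sources used here do not state its meaning. As a random block it called 5 genes for the interaction. Every letter but B fell within a single group, and the consensus correlation was -0.15. This block could therefore adjust little between groups. With the replicate block limma called 2 genes for the interaction, and 0 in each of the other comparisons. Deviations of same-numbered arrays correlated above 0.1 in 5 of 18 pairs (r from -0.18 to 0.45), so the numbers were not taken as pairing. On deviations from group means 0 of the 15 pairs passed, against 1.

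Directions that turned belonged to differences and correlations that were not called. With array quality weights TFF1 was at -0.0149 for ERα in control and -0.18 averaged, IGFBP4 at 0.0386 averaged and RAPGEFL1 at -0.0164 averaged. The code letter as a block gave -0.0065 for MYC for shMOF in ERα(-) and -0.0063 for TFF1 averaged. Leaving out single arrays, the ranges were -0.0494 to 0.101 for MYC and -0.0041 to 0.17 for TFF1 for shMOF in ERα(-), -0.0951 to 0.0079 for MYC for ERα in shMOF and -0.0039 to 0.0961 for IGFBP4 for ERα in control. Averaged over genotypes they were -0.0789 to 0.0849 for TFF1, -0.0806 to 0.0106 for IGFBP4 and -0.0052 to 0.11 for MYC. Correlations after quantile normalization were -0.0052 for GREB1 and MYC, 0.0562 for RAPGEFL1 and ESR1 and -0.0507 for MYC and ESR1. On deviations from group means they were 0.18 for GREB1 and TFF1, 0.18 for IGFBP4 and RAPGEFL1, -0.31 for TSKU and ESR1 and -0.23 for MYC and ESR1. Leaving out single arrays, r ran from -0.12 to 0.20 for IGFBP4 and RAPGEFL1, -0.20 to 0.0521 for RAPGEFL1 and ESR1, -0.0566 to 0.31 for MYC and ESR1, -0.35 to 0.0246 for GREB1 and TFF1, -0.23 to 0.0709 for GREB1 and IGFBP4, -0.0379 to 0.60 for TFF1 and MYC, and -0.0661 to 0.52 for RAPGEFL1 and MYC. That of TSKU and RAPGEFL1 ran from 0.83 to 0.90 and passed each time.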

Other observations

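RAPGEFL1 and IGFBP4 lie near each other on chromosome 17, with 13 annotated genes between them in the RefSeq order, of which 2 were measured here, CDC6 and TOP2A. These were looked at after the values of the 6 genes were seen. CDC6, which licenses DNA replication and is itself an oestrogen-induced gene in breast cancer cells, had r = 0.82 with IGFBP4 and -0.18 with RAPGEFL1 over the 12 arrays, at signals from 8.36 to 8.77. TOP2A, a DNA topoisomerase of dividing cells, had r = -0.61 with IGFBP4 and -0.35 with RAPGEFL1, at signals from 9.36 to 10.61. RAPGEFL1 and IGFBP4 themselves had r = -0.01. These values are descriptions without a test.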
